A study of Mus musculus with 18 samples.

Results

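The genes described here encode 7 small heat shock proteins of striated muscle (Hspb1, Hspb2, Hspb3, Hspb6, Hspb7, Hspb8 and Cryab), the pair of inducible HSP70 proteins (Hspa1a and Hspa1b) and the HSP70 co-chaperone Bag3. They were taken as a list of names. This list and the lists of other genes below were chosen with earlier results of these data known. Counts of their genes are therefore set beside the shares of all genes as descriptions. All 10 were found among the 48709 genes of the count table and passed the filter on low counts, which left 13281 genes. Small heat shock proteins share a core called the α-crystallin domain, hold unfolding proteins without using ATP and pass them on to HSP70, which refolds them with ATP. BAG3 joins HSPB8 to HSP70 in a complex that sends damaged filament proteins to autophagy, and in the heart it is known for upkeep of the Z-disc. Transcription of the inducible members of both families is classically driven by heat shock factor HSF1, which binds repeated GAA and TTC units.

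RNA came from the left ventricle of 12-week-old male wild type C57BL/6J mice, in 3 groups of 6 libraries. The isoproterenol group had the β-adrenergic agonist isoproterenol infused at 30 mg/kg/day by osmotic pump and saline injections. The isoproterenol with minocycline group had the same infusion and daily intraperitoneal injections of the tetracycline antibiotic minocycline at 50 mg/kg. The control group had saline by both routes, and every group was treated for 21 days. No group with minocycline alone was analysed here, so the effect of minocycline without isoproterenol was not measured. The labels' protocol speaks of pooled RNA, so it is uncertain whether a library is 1 animal. The p-values set group differences against the spread between libraries, which need not be the spread between animals. The libraries held 14203041 to 22688664 counts, and levels are given in CPM, counts scaled by library size.

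Hspa1a and Hspa1b lie 9951 bases apart on mouse chromosome 17, and their promoters are shown first because these genes encode the inducible HSP70. The promoters of Hspb6 and Hspb8, which were lower after isoproterenol, and of Hspb1, which did not pass the test, are shown with them. Each line gives the 250 bases before the annotated start from RefSeq (GRCm38.p6), 5′ to 3′ on the gene's strand. Capitals mark matches to the 2-unit heat shock motif GAANNTTC or TTCNNGAA, which are each their own reverse complement and so cover both strands. The genes were picked for printing after their values were seen.
Hspa1a: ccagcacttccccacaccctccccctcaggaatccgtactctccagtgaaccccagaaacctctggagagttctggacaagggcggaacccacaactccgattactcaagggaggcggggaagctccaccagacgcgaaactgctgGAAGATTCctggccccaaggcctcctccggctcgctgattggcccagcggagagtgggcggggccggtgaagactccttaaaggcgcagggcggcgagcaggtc
Hspa1b: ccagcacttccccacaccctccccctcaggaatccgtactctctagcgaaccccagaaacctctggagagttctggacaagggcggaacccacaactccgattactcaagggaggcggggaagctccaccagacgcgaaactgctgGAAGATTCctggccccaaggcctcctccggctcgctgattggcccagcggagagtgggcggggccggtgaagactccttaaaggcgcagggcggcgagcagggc
Hspb1: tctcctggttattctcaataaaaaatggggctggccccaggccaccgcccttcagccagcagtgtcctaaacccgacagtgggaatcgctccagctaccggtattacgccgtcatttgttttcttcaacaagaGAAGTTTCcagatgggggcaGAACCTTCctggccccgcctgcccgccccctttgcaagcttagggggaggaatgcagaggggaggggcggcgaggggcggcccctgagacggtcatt
Hspb6: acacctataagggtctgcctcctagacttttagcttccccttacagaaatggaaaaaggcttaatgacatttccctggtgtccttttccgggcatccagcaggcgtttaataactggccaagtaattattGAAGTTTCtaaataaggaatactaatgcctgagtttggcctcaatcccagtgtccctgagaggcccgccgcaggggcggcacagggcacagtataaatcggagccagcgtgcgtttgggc
Hspb8: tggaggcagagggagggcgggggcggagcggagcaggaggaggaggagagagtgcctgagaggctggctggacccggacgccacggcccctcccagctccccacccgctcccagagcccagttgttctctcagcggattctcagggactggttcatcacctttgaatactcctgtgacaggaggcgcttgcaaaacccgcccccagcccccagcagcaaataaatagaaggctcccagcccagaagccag
In genome order these windows are chr5:116422865-116423114 on the minus strand for Hspb8, chr5:135887669-135887918 on the plus strand for Hspb1 and chr7:30553051-30553300 on the plus strand for Hspb6, at the second of its 2 annotated starts. Those of Hspa1b and Hspa1a are chr17:34959239-34959488 and chr17:34972157-34972406, on the minus strand.

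The Hspa1a and Hspa1b windows are the same at 247 of 250 bases, and each holds GAAGATTC at positions -104 to -97 from the start. Hspb1 has GAAGTTTC at -117 to -110 and GAACCTTC at -97 to -90. Hspb6 has GAAGTTTC at -120 to -113. In Hspb8 the match, GAAGTTTC, lies just past the start at 3 to 10, outside the printed stretch. Promoter windows of 300 bases, 250 before to 50 after a start, were found for 8 of the 10 genes. Hspb6 has 2 windows, so the 8 genes have 9. Of these 9 windows, 7 held a 2-unit motif, against 15.1% of 32851 promoters, and those of Hspb7 and of the first Hspb6 start held none. The windows are not independent, since those of Hspa1a and Hspa1b are the same at 296 of 300 bases and are both counted. An exact match to the full heat shock element, which adds a further unit at the same spacing, was in 0 of the 9 windows on either strand. All promoters had it in 0.603%. Elements with imperfect units were not searched for, so the windows may hold such elements. A match is a description of letters and was not tested as a binding site.

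Per kilobase of exon, Hspb7 and Cryab were the most abundant of the 10 transcripts, and Hspa1a and Hspa1b the least. Hspb7 encodes a heart-enriched small heat shock protein that acts at thin filaments, and Cryab encodes αB-crystallin, a chaperone of desmin and of the Z-disc. The level of Hspb7 was 849 ± 69.9 CPM per kilobase in isoproterenol, 853 ± 44.1 in isoproterenol with minocycline and 827 ± 86.4 in control libraries (SD, n = 6 each, as for every mean below). Cryab had 568 ± 56.1, 572 ± 45.0 and 654 ± 23.6 CPM per kilobase in the same order of groups. The pair held 68.2% of the summed level of the 10 genes in isoproterenol, 69.1% in isoproterenol with minocycline and 64.9% in control libraries. In isoproterenol libraries Hspb6 came next at 267 ± 25.5 CPM per kilobase, then Hspb8 (129 ± 11.2) and Hspb1 (122 ± 13.1), which overlapped between libraries. Bag3 (66.6 ± 4.37) and Hspb2 (59.8 ± 2.93) overlapped too, and Hspb3 (5.76 ± 0.889), Hspa1a (5.40 ± 4.10) and Hspa1b (3.46 ± 2.497) closed the order, each overlapping the next. With minocycline added, Hspb1 (123 ± 16.997) stood above Hspb8 (114 ± 5.07), again with overlapping libraries, and the rest of the order was the same. Control libraries gave the order of the isoproterenol group with clearer gaps: Hspb6 had 378 ± 39.7 CPM per kilobase, Hspb8 179 ± 9.32 and Hspb1 108 ± 19.5, without overlap. Bag3 at 70.3 ± 9.71 and Hspb2 at 55.7 ± 5.16 overlapped in control. Hspb3 followed at 6.61 ± 1.57, above Hspa1a at 1.92 ± 1.09 and Hspa1b at 1.23 ± 0.516, and only the last pair overlapped. Per kilobase of the longest transcript, Cryab passed Hspb7 in control libraries, at 865 ± 31.2 against 827 ± 86.4 CPM per kilobase, and the libraries of these 2 genes overlapped in every group.

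**Figure D1:**
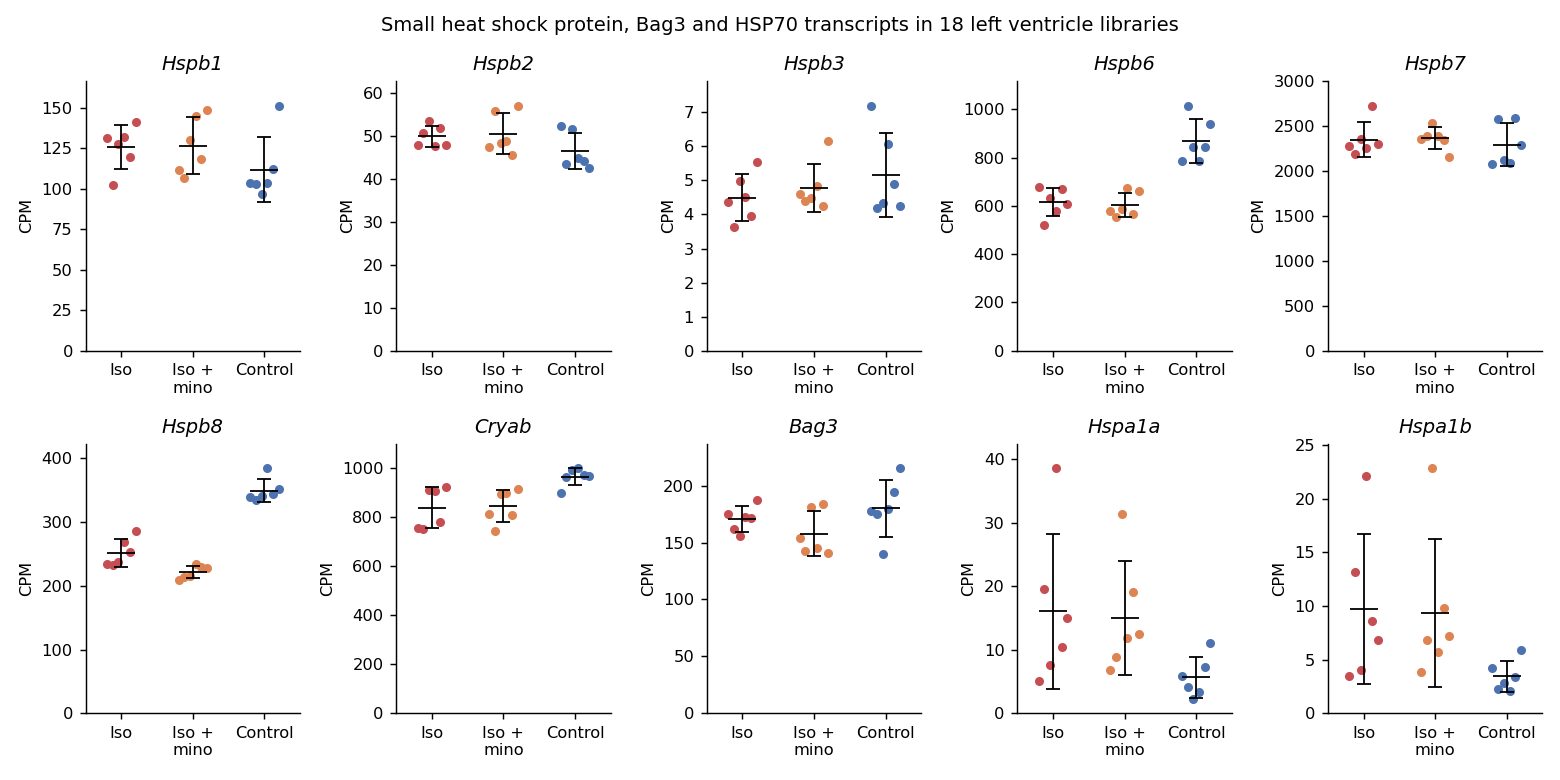
CPM of each gene in every library (points), with the mean and SD as a black bar, for isoproterenol, isoproterenol with minocycline and control (n = 6 each, linear axes from 0). In CPM, Hspb6 and Hspb8 sit lower in every library of the groups given isoproterenol than in any control library, and Hspa1a and Hspa1b are spread widely, up to 38.5 and 22.8 CPM.

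Isoproterenol versus control addressed how the ventricle's transcripts differed after sustained β-adrenergic stimulation. Hspb8, Hspb6 and Cryab fell, no gene of the 10 rose past the threshold, and 7 did not pass it. At an unadjusted p under 0.05, which 27.6% of all genes and 5 of the 10 reached, Hspa1a and Hspa1b were higher and were called by DESeq2. Genes were called at an adjusted p under 0.05 by Benjamini-Hochberg over all 13281 genes, from the quasi-likelihood test of edgeR, and standard errors (SE) are on the log2 scale. In this comparison 12.6% of all genes were called, 5.62% of all as lower and 6.94% as higher, against 3 lower and 0 higher of the 10 genes here. The median log2 fold change was -0.021 over the 10 genes and 0.0011 over all genes tested.

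Hspb8, the small heat shock protein that works with BAG3, had 233 CPM in its lowest isoproterenol library, a median of 245 and a highest value of 286. Its control libraries ran from 335 CPM over a median of 342 to 385, so no library overlapped. The log2 fold change was -0.47 (SE 0.058, adjusted p = 1.51e-05), a 1.38-fold fall. Hspb6, also called HSP20, is phosphorylated on β-adrenergic stimulation and is known in heart and smooth muscle as a regulator of relaxation. It had 522 CPM at the lowest, 620 at the median and 678 at the highest in isoproterenol libraries, against 784, 844 and 1015 in control libraries, again without overlap. The log2 fold change was -0.50 (SE 0.076, adjusted p = 0.000166), a 1.41-fold fall. CPM ranges that did not overlap and were lower were found for 3.25% of all genes, and here for these 2 genes. In TPM the libraries of Hspb6 overlapped, at 365 to 532 in isoproterenol and 475 to 657 in control. Those of Hspb8 did not overlap in TPM (181 to 237 against 244 to 276).

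Cryab fell less. It had 754 CPM at the lowest, 846 at the median and 924 at the highest in isoproterenol libraries, against 902, 970 and 1001 in control libraries. In isoproterenol, 3 libraries, at 908 to 924 CPM, lay above the lowest control library. The log2 fold change was -0.20 (SE 0.065, adjusted p = 0.0437). Leaving out isoproterenol library 1, 2 or 5, isoproterenol with minocycline library 1 or control library 2, 3, 4, 5 or 6 ended this call (adjusted p = 0.0502 to 0.114, log2 fold change -0.17 to -0.20). It was also lost without the 4 libraries above 80 CPM of the atrial transcript Myl7, which are isoproterenol library 5, isoproterenol with minocycline library 2 and control libraries 5 and 6 (log2 fold change -0.18, adjusted p = 0.208). In TPM the groups lay closer for Cryab, at 1154 ± 83.4 in isoproterenol and 1173 ± 57.9 in control libraries.

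Other small heat shock protein genes did not pass the test. Hspb7 had 2188, 2286 and 2728 CPM at the lowest, median and highest isoproterenol library, against 2081, 2205 and 2587 in control (log2 fold change 0.036, adjusted p = 0.772, 95% interval -0.10 to 0.18). Hspb1, also called HSP25 in mice and bound to actin filaments, had 102, 130 and 141 CPM against 97.0, 104 and 152 in control (log2 fold change 0.17, adjusted p = 0.319, 95% interval -0.053 to 0.39). Of the control libraries of Hspb1, 5 lay between 97.0 and 112 CPM. Hspb2, a muscle protein that binds the myotonic dystrophy kinase and forms oligomers with HSPB3, had 47.6, 49.3 and 53.4 CPM against 42.6, 44.5 and 52.3 (log2 fold change 0.10, adjusted p = 0.345). Its partner Hspb3 had 3.62, 4.44 and 5.54 CPM against 4.18, 4.62 and 7.20 (log2 fold change -0.20, adjusted p = 0.401). CPM ranges of all 4 overlapped between the groups. In TPM, Hspb2 had 88.0 to 113 in isoproterenol libraries and 74.2 to 87.9 in control.

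Bag3 had 155, 172 and 188 CPM in isoproterenol libraries, against 140, 178 and 215 in control (log2 fold change -0.078, SE 0.088, adjusted p = 0.609). Its libraries overlapped fully, with the control group wider on both sides. Within a library, the ratio of Hspb8 to Bag3 counts needs no scaling between libraries. That ratio was 1.48 ± 0.083 in isoproterenol and 1.97 ± 0.285 in control libraries, with a highest value of 1.57 in isoproterenol and a lowest of 1.63 in control. The difference on the log2 scale was -0.40 (2-sided exact permutation p = 0.00216, the smallest that 924 regroupings allow, adjusted p = 0.00649 over 6 such tests). Cryab and Hspb2 are neighbours, with starts that face away from each other and 403 bases between them (chromosome 9, Hspb2 at 50751072 to 50752354 and Cryab at 50752758 to 50756633, coordinates of the deposited table). The ratio of Cryab to Hspb2 counts was 16.9 ± 1.94 in isoproterenol and 21.0 ± 2.22 in control libraries (log2 difference -0.31, exact permutation p = 0.0108, adjusted p = 0.0162). Its libraries overlapped, since control libraries 1 and 3 had ratios of 17.2 and 19.26, below the highest isoproterenol library at 19.28. Both ratios were added after the values had been seen, and the adjustment over 6 tests does not cover that choice. Their p-values, here and below, are descriptions.

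**Figure D2:**
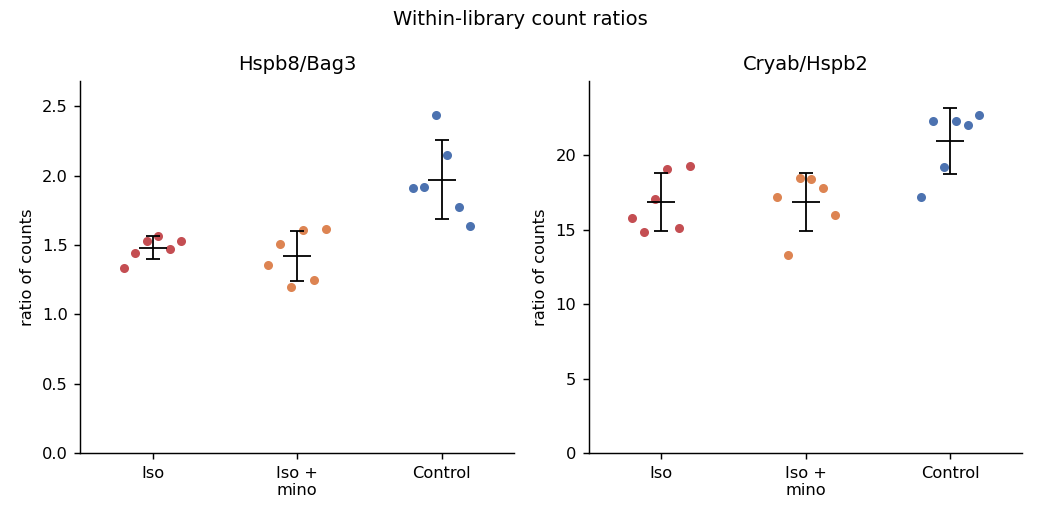
Ratio of the counts of Hspb8 to Bag3 (left) and of Cryab to Hspb2 (right) in each library (points), with mean and SD as a black bar, for isoproterenol, isoproterenol with minocycline and control (n = 6 each). All 12 libraries given isoproterenol have an Hspb8 to Bag3 ratio of at most 1.61, below the lowest control library at 1.63.

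Hspa1a and Hspa1b gave the highest fitted values of the 10 genes, and neither passed the test. Hspa1a had 5.13 CPM in its lowest isoproterenol library, a median of 12.7 and a highest value of 38.5, against 2.27, 5.04 and 11.1 in control. Hspa1b had 3.49, 7.76 and 22.1 CPM, against 2.04, 3.14 and 5.91 in control. The groups overlapped, since isoproterenol libraries 1 and 3 lay within the control range for both genes, and libraries 2, 4 and 6 stood above it for both. The log2 fold change was 1.52 for each gene (adjusted p = 0.0678 for Hspa1a and 0.0629 for Hspa1b), with a 95% interval of 0.41 to 2.62 for Hspa1a. Their coding sequences are 98.0% identical and 38.1% and 40.5% of 150-base windows of the transcripts occur in the other one, so reads may have been divided between them in counting. Summed, the pair had 25.7 ± 19.1 CPM in isoproterenol and 9.16 ± 4.55 CPM in control libraries (log2 fold change 1.51, adjusted p = 0.0621). DESeq2 called the sum (log2 fold change 1.49, adjusted p = 0.0194). In edgeR it passed without isoproterenol library 1 (1.69, adjusted p = 0.0394), isoproterenol with minocycline library 3 (1.51, adjusted p = 0.0427) or control library 6 (1.77, adjusted p = 0.0498). Without isoproterenol library 4, which held the most, the fitted value of the sum was 1.05 (adjusted p = 0.152).

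The spread within groups was larger for the HSP70 pair than for the other 8 genes. Coefficients of variation of CPM in isoproterenol libraries were 75.9% for Hspa1a and 72.1% for Hspa1b. With minocycline added they were 59.5% and 73.4%, and in control libraries 56.5% and 41.9%. Those of the others lay between 3.61% and 23.8% in every group. Hspb3, with 63 to 130 counts a library, had 14.6% to 23.8%, while Hspa1a had 45 to 726 counts. After group means were subtracted, log2-CPM of Hspa1a and Hspa1b correlated at r = 0.90 (rho = 0.87, n = 18 libraries, permutation p adjusted over 8 pairs = 0.00016), and at 0.85 without the 2 libraries farthest from the median. The part of reads shared by the near-identical sequences in this value was not tested. The Hspa1a to Hspa1b ratio of counts stayed within 0.789 to 2.18 in all libraries.

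**Figure D3:**
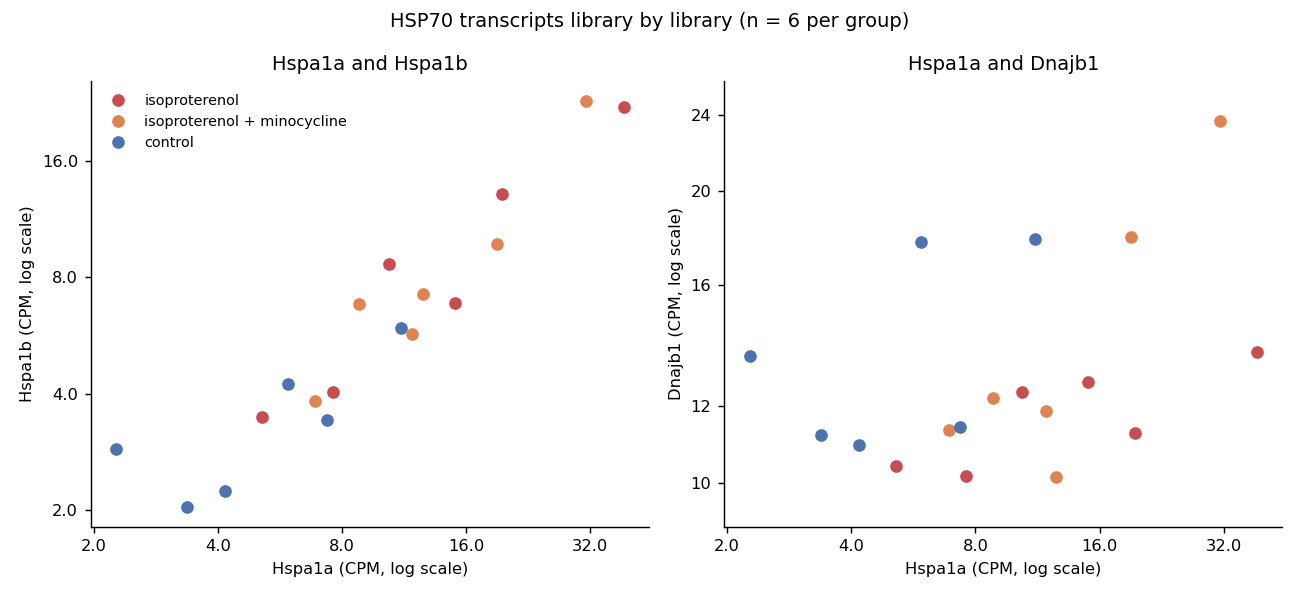
CPM of Hspa1b (left) and of Dnajb1 (right) against Hspa1a in each library, on log axes, coloured by group (n = 6 each). Hspa1a and Hspa1b line up across all 3 groups, whereas 2 control libraries have 17.7 and 17.8 CPM of Dnajb1 at 5.91 and 11.1 CPM of Hspa1a.

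Dnajb1 encodes the J-domain partner of inducible HSP70 and is itself a classical heat shock gene. Its correlation with Hspa1a was r = 0.64 within groups (rho = 0.52, adjusted permutation p = 0.00947), 0.53 without the 2 farthest libraries. Dnajb1 itself had 10.1 to 13.6 CPM in isoproterenol libraries, against 10.9 to 17.8 CPM in control (log2 fold change -0.22, adjusted p = 0.484). The immediate early gene Fos, which rises with many acute stimuli, gave r = 0.37 with Hspa1a (adjusted permutation p = 0.213). Bag3 and Flnc, which encodes the Z-disc protein filamin C, a client of the BAG3 complex, gave r = 0.69 (rho = 0.64, adjusted p = 0.00947), or 0.50 without the 2 farthest libraries. For Hspb1 and Cryab r was 0.56 (rho = 0.62, adjusted p = 0.0226), or 0.64 without the 2 farthest. Values for Hspb2 and Cryab (r = -0.11), Bag3 and Hspb8 (r = 0.26) and Hspb6 and Hspb7 (r = 0.44) did not pass (adjusted permutation p = 0.643, 0.278 and 0.163). Without subtraction of group means, r was 0.41 for Hspa1a and Dnajb1, 0.36 for Bag3 and Flnc and 0.073 for Hspb1 and Cryab, and none of these passed (adjusted permutation p = 0.181, 0.181 and 0.881). All of these come from 18 libraries, which share depth and scaling between the genes.

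Added minocycline, the comparison of isoproterenol with minocycline against isoproterenol, called none of the 10 genes. Only 7 of all 13281 genes were called here (0.0527%), and 7.6% had an unadjusted p under 0.05, as did 1 of the 10. Ranges did not overlap for 0.346% of all genes and for 0 of the 10. The gene with an unadjusted p under 0.05 was Hspb8, with 209 CPM at the lowest, 222 at the median and 234 at the highest in isoproterenol with minocycline, against 233, 245 and 286 in isoproterenol libraries. All 6 libraries with minocycline lay below the isoproterenol mean, and the ranges touched at 233 to 234 CPM. The log2 fold change was -0.19 (SE 0.058, 95% interval -0.31 to -0.066, unadjusted p = 0.00397), and the adjusted p was 0.451 in edgeR and 0.0495 in DESeq2. For the other small heat shock protein genes the fitted values lay between -0.026 for Hspb6 and 0.092 for Hspb3. Bag3 had 141, 150 and 184 CPM with minocycline, against 155, 172 and 188 without (log2 fold change -0.11, adjusted p = 0.777). The intervals were narrow for abundant genes, from -0.13 to 0.15 for Hspb7 and -0.12 to 0.15 for Cryab. They were wide for HSP70: the summed pair had 24.4 ± 15.7 CPM with minocycline and 25.7 ± 19.1 CPM without (log2 fold change -0.081, 95% interval -1.09 to 0.93). Within isoproterenol with minocycline, library 3 held 31.3 CPM of Hspa1a and 22.8 CPM of Hspa1b, and the other libraries at most 19.0 and 9.78. The Hspb8 to Bag3 ratio was 1.42 ± 0.181 with minocycline and 1.48 ± 0.083 without (exact permutation p = 0.452), and that of Cryab to Hspb2 was 16.9 in both groups (exact permutation p = 0.996).

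Isoproterenol with minocycline versus control uses the same control libraries as the first comparison, so the values of the pair are not independent. Hspb8, Hspb6 and Cryab fell, 3 of the 10 genes against 19.3% of all genes called in either direction and 9.05% called as lower. Another 10.2% of all genes, and 0 of the 10, were called as higher, while DESeq2 called 2 of the 10 higher. Hspb8 had 209 to 234 CPM against 335 to 385 CPM in control (log2 fold change -0.66, SE 0.058, adjusted p = 1.29e-07), a 1.58-fold fall. Hspb6 had 555, 583 and 673 CPM at the lowest, median and highest library, against 784, 844 and 1015 in control (log2 fold change -0.53, SE 0.076, adjusted p = 6.78e-05). Ranges of both genes were apart from control, as for 3.59% of all genes that were lower without overlap. Cryab had 744, 855 and 914 CPM against 902, 970 and 1001 in control (log2 fold change -0.19, SE 0.065, adjusted p = 0.0419), with overlapping libraries. The call of Cryab was lost in 13 of the 18 fits that left out 1 library (adjusted p = 0.0507 to 0.130). It held without isoproterenol library 3, isoproterenol with minocycline library 3, 4 or 6, or control library 1.

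Bag3 had 141, 150 and 184 CPM in this comparison, against 140, 178 and 215 in control (log2 fold change -0.19, SE 0.088, adjusted p = 0.135). It was called without control library 3, its lowest control library at 140 CPM (-0.25, adjusted p = 0.0367). Hspb1 was called without control library 6, its highest at 152 CPM (log2 fold change 0.29, adjusted p = 0.0357), and had 0.18 (adjusted p = 0.242) with all libraries. Hspb2 (0.12), Hspb7 (0.044) and Hspb3 (-0.10) did not pass (adjusted p = 0.221, 0.684 and 0.647). Hspa1a had 6.89, 12.2 and 31.3 CPM with both drugs, against 2.27, 5.04 and 11.1 in control, and the fitted value was 1.42 (adjusted p = 0.0676). That of Hspa1b was 1.46 (adjusted p = 0.0560), and the summed pair had 1.43 (adjusted p = 0.0583). DESeq2 called the sum (1.42, adjusted p = 0.0210), as did a fit of the 12 libraries compared (1.43, adjusted p = 0.0447). In edgeR the sum passed without isoproterenol library 1 (adjusted p = 0.0483) or 4 (0.0349), isoproterenol with minocycline library 1 (0.0444) or control library 6 (0.0446). The Hspb8 to Bag3 ratio was 1.42 ± 0.181 with both drugs and 1.97 ± 0.285 in control (log2 difference -0.47, exact permutation p = 0.00216).

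**Figure D4:**
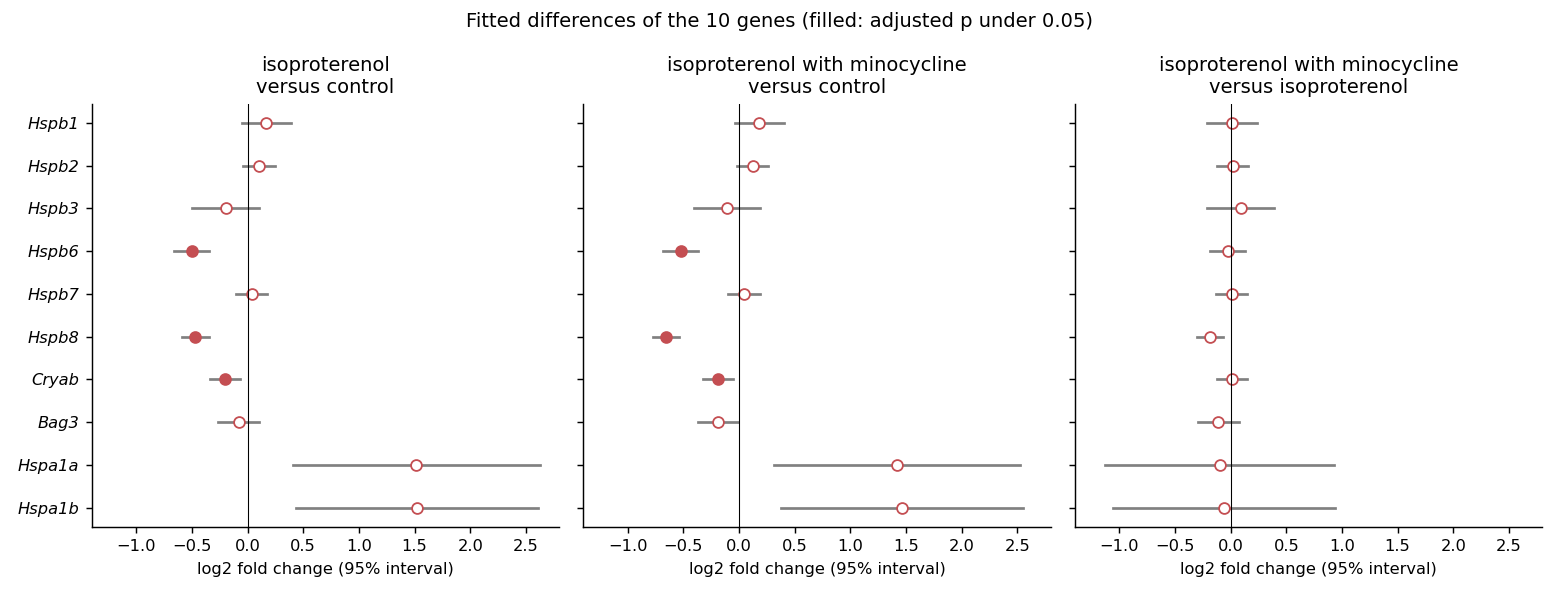
Fitted log2 fold change (points) and 95% interval (lines) of each gene in the 3 comparisons, with filled points for an adjusted p under 0.05. Hspb6, Hspb8 and Cryab are filled and below 0 in both comparisons with control, no point is filled for added minocycline, and the intervals of Hspa1a and Hspa1b are the widest.

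Fewer cardiomyocytes and less RNA per cardiomyocyte cannot be told apart in bulk tissue. Of 8 cardiomyocyte markers, 3 fell in isoproterenol versus control (Myl3, Myl2 and Myh6), and none was at 0. The other 5 were not called, with log2 fold changes from -0.19 for Actc1 to 0.21 for Ryr2 (adjusted p = 0.161 and 0.429). The sum of the 8 was 53305 to 58224 CPM in isoproterenol, 52599 to 63606 CPM in isoproterenol with minocycline and 63359 to 70779 CPM in control libraries. Within that sum, Myh6 alone had a mean of 23341 CPM in isoproterenol and 29933 CPM in control libraries. Macrophage markers were called higher for 4 of 6 genes after isoproterenol, with sums of 123 to 165 CPM, against 92.3 to 112 CPM in control. Fibroblast markers were higher for 2 of 6, with sums of 822 to 1146 CPM against 633 to 882 CPM. Smooth muscle and pericyte markers were higher for 1 of 6, and endothelial markers for 0 of 5. Of all genes, 6.94% were higher and 5.62% lower. With both drugs versus control, 5 of 6 fibroblast, 4 of 6 macrophage, 2 of 6 smooth muscle and pericyte and 1 of 5 endothelial markers were higher. In that comparison 3 of 8 cardiomyocyte markers were lower, beside 10.2% of all genes higher and 9.05% lower. Sums of 3 atrial markers ran from 23.02 to 230 CPM in isoproterenol, from 26.2 to 484 CPM with minocycline and from 35.7 to 315 CPM in control libraries. Set against the mean log2-CPM of the 8 cardiomyocyte markers, a measure added after the values were seen, Cryab differed by -0.0018 between isoproterenol and control and by -0.0091 between isoproterenol with minocycline and control. The marker mean itself differed by -0.21 between isoproterenol and control. Set against it, Hspb8 differed by -0.27 and -0.47, without overlap of libraries in either comparison. Hspb6 differed by -0.29 and -0.34 with overlapping libraries. On that scale Hspb2 was 0.31 higher after isoproterenol, without overlap. Hspb1 (0.38), Hspb7 (0.25), Bag3 (0.14), Hspb3 (0.028), Hspa1a (1.55) and Hspa1b (1.47) were higher there too, with overlapping libraries. The share of all genes without overlap on that scale was not computed. The part of cell makeup in these results was not tested.

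Genes with the most similar patterns over the 18 libraries were found by Pearson's r of log2-CPM among 7182 genes of at least 10 CPM. These values are descriptions, and the libraries share groups, depth and scaling. Hspb6 was closest to Acta1 (r = 0.92), Myl3 (0.91) and Myl12a (0.89), and Hspb8 to Acsf2 (0.95), Aplp2 (0.94) and Plin3 (0.93). Cryab was closest to S100a1, Ddt and Erp29 (0.85, 0.85 and 0.83). After group means were subtracted, Hspa1a was closest to Dnaja1 (0.85), Ppp1r15a (0.84) and Map4k4 (0.82), and Hspb1 to Nppb (0.87), Ankrd23 (0.86) and Csrp3 (0.84). Counts of Dnaja1 are uncertain because Smu1 overlaps it. The closest gene depended on the scale. With subtraction it was Med20 for Hspb8 (0.86) and Rplp2 for Cryab (0.81), and again Acta1 for Hspb6 (0.81). Without subtraction it was Smurf2 for Hspa1a (0.84) and Spry1 for Hspb1 (0.78). Bag3 was closest to Dusp8 both with and without group means (0.86 and 0.89).

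Over the 9 lists of other pathway genes, 10 of 102 tested genes were called after isoproterenol, against 12.6% of all genes, and 33 had an unadjusted p under 0.05, against 27.6% of all genes. Of 12 HSP70 relatives tested, Hspa13 rose (10.4 ± 0.864 against 8.58 ± 0.763 CPM in control, adjusted p = 0.0258) and Hspa12a fell (14.8 ± 1.08 against 21.6 ± 4.06 CPM, adjusted p = 0.000787). The others had log2 fold changes from -0.22 for the mitochondrial HSP70 Hspa9 to 0.36 for Hsph1, and the constitutive Hspa8 had -0.16 (adjusted p = 0.368). Of 25 J-domain genes only the mitochondrial Dnaja3 passed, and fell (81.2 ± 6.59 against 103 ± 7.03 CPM). Bag2, an HSP70 exchange factor that blocks the ubiquitin ligase CHIP, rose to 39.3 ± 2.996 CPM, against 30.4 ± 0.608 CPM in control (log2 fold change 0.37, adjusted p = 0.00185), 1 of 11 genes of its list. Of 14 HSP90 genes and co-chaperones, the immunophilin Fkbp4 fell (209 ± 14.7 against 270 ± 13.2 CPM, adjusted p = 0.000871), and the rest ran from -0.17 for Unc45b to 0.45 for Fkbp5. Among 10 chaperonin genes Hspd1 fell (179 ± 16.5 against 250.2 ± 24.1 CPM, adjusted p = 0.0042), and Hspe1 was called lower too, but their annotations overlap and their counts are uncertain. Of the heat shock factor genes, Hsf1 had -0.11, Hsf2 -0.068 and Hsf4 0.035 (adjusted p = 0.382, 0.650 and 0.902). Hsbp1, which encodes a protein that binds heat shock factor, had -0.11 (unadjusted p = 0.0238, adjusted p = 0.114 in edgeR), and DESeq2 called it, 1 of the 4 genes of that list.

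With both drugs, 26 of the 102 genes were called against the shared control libraries, beside 19.3% of all genes (9.05% of all genes as lower). For isoproterenol alone the shares of all genes were 12.6% and 5.62%. The HSP90 list had 5 of 14 lower (Fkbp4, Unc45b, Hsp90ab1, Trap1 and Ptges3), led by Fkbp4 at -0.50 (adjusted p = 2.6e-05) and the myosin chaperone Unc45b at -0.31 (adjusted p = 0.00241). HSP70 relatives had 4 of 12 lower, of which Hspa9 had -0.30 (adjusted p = 0.00997), and 1 higher. Chaperonins had 4 of 10 lower, all of them with an overlapping neighbour. The J-domain list had 2 of 25 lower, Dnaja3 and Dnajb4. Of 11 BAG and exchange factor genes, Bag2 and Hspbp1 rose and Grpel1 fell, and 0 of the 4 genes Hsf1, Hsf2, Hsf4 and Hsbp1 passed (0 at an unadjusted p under 0.05, 0 in DESeq2). For added minocycline, 0 of the 102 genes tested in the 9 pathway lists were called by edgeR, DESeq2 or limma-voom, and 5 had an unadjusted p under 0.05 in edgeR. Median log2 fold changes in isoproterenol with minocycline versus control were -0.12 for the HSP90 list, -0.12 for chaperonins and -0.067 for HSP70 relatives, against 0.0035 over all genes.

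**Figure D5:**
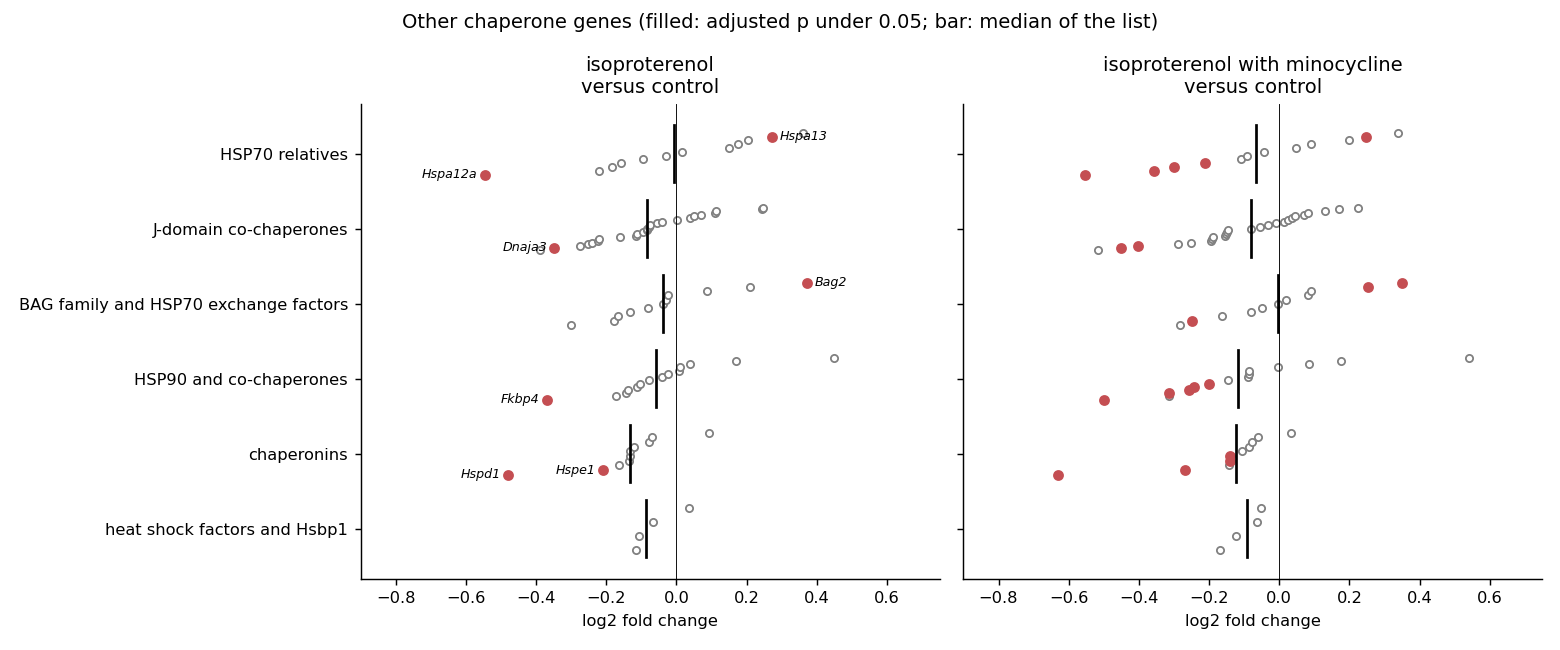
Log2 fold change of each tested gene of 6 chaperone lists in isoproterenol versus control (left, called genes named) and isoproterenol with minocycline versus control (right), with filled points for an adjusted p under 0.05 and a bar at the list's median. The called genes lie mostly below 0, with Bag2 and Hspa13 above it in both panels.

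Partners outside the chaperone families are read against the same shares of all genes, 12.6% after isoproterenol and 19.3% with both drugs. Of 12 Z-disc, filament and autophagy genes, Map1lc3a, the autophagosome protein LC3A, rose after isoproterenol (351 ± 18.4 against 305 ± 22.6 CPM in control, adjusted p = 0.0242) and Synpo2l fell (71.8 ± 9.24 against 110 ± 22.97 CPM, adjusted p = 0.0024). Flnc had 0.19 (adjusted p = 0.306). With both drugs, Map1lc3a and Vim rose and Vcp and Synpo2l fell, 4 of the 12. Of 13 immediate early genes, Junb was called higher after isoproterenol, with counts that are uncertain because Prdx2 overlaps it. Junb, Ier2 and Fos, 3 of the 13, were called higher with both drugs, and Fos then had 8.998 to 37.3 CPM, against 4.51 to 13.5 CPM in control (log2 fold change 1.54, adjusted p = 0.0159). Summed immediate early transcripts ran from 293 to 543 CPM in isoproterenol, from 350 to 610 CPM with minocycline and from 257 to 563 CPM in control libraries. Their part in the HSP70 values was not tested. Of 4 genes listed as other small heat shock protein genes, 3 had 0 to 3 counts in all libraries together (Cryaa, Hspb9 and Odf1). Hspb11, placed on that list by its symbol only, did not pass in any comparison.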

How the data were processed

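Polyadenylated RNA was sequenced on an Illumina NovaSeq in 18 libraries, paired-end with reads of 150 bases, and processed in CLC Genomics Workbench, per the labels' protocols. Build, annotation, strand and mapping settings: not given in the sources used here. In addition, edgeR is named in the submitters' processing notes, with no role. The authors deposited counts per gene and TPM values per library in 1 table, and 0 per-sample columns matched no library. The TPM as deposited were used to check the order of levels and to describe ranges and means, and were not tested.

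Counts were filtered with filterByExpr and tested in edgeR 4.0.16 (R 4.3.3; TMM, glmQLFit robust, glmQLFTest) on all 18 libraries at once, each group with its own mean, 2-sided. The biological coefficient of variation was 13.2%. CPM use TMM-scaled library sizes, and log2-CPM carry a prior count of 2. Alternatives used DESeq2 1.42.0, limma 3.58.1 (voom), other scalings and filters, and omitted libraries. Relations used 100000 permutations, within groups after subtraction of group means and over all 18 libraries without subtraction. Libraries are numbered in accession order.

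The members and lists were chosen with earlier results of these data known. The rule for names took all members, up to 4 called genes with the smallest p per list and comparison, and the 3 most similar genes. It also took uncalled HSP70, HSP90 and heat shock factor genes after isoproterenol, and genes of the correlation pairs. Some names went beyond the rule, since all 5 called HSP90 genes with both drugs were named. For lists, 163 of 164 symbols matched. GENCODE release M21 holds 48349 of the identifiers and gave exon lengths. Its gene positions were those of the deposited table for 87.8% of genes, but not for Hspb2 and Cryab. Overlaps came from gene positions in the deposited table, on either strand (a neighbour holding at least 20% as many counts). Heat shock motifs were searched in RefSeq promoters.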

Additional observations from a re-analysis of the deposited data

Results flagged for a closer look

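Of 33 sets of 6 libraries examined (10 genes and the summed HSP70 pair in 3 groups), 6 had a highest or lowest library set apart from the rest by more than Dixon's 95% limit, and chance gives about 1 in 20. In isoproterenol libraries, library 5 had 2728 CPM of Hspb7, and the next highest 2361 CPM. In isoproterenol with minocycline, library 6 had 6.16 CPM of Hspb3 (next 4.84 CPM), and library 3 had 22.8 CPM of Hspa1b (next 9.78 CPM). Among control libraries, library 6 had 152 CPM of Hspb1 (next 112 CPM), library 4 had 385 CPM of Hspb8 (next 352 CPM), and library 1 had the lowest Cryab, 902 CPM (next 965 CPM).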

How the results depend on the processing

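The calls of Hspb6 and Hspb8 against control were kept, in the same direction, in each of the 18 fits without 1 library and in each of 10 other settings. Cryab kept its call in 6 of those 10 in both comparisons with control, and lost it with no filter, a 1 CPM filter, upper-quartile scaling and without the 4 libraries above 80 CPM of Myl7. Members called higher went to 2 with DESeq2 in both comparisons with control, to 2 in the fit of 12 libraries and to 1 without the 4 libraries for both drugs versus control. Members called lower for added minocycline went to 1 with DESeq2. The summed HSP70 pair was 1.49 and 1.42 with DESeq2 against control and 1.43 in the fit of 12 libraries for both drugs, now past the threshold. Correlations without subtraction of group means were no longer past it at 0.41 (Hspa1a and Dnajb1), 0.073 (Hspb1 and Cryab) and 0.36 (Bag3 and Flnc). Signs turned for values near 0: Bag3 in isoproterenol versus control (0.026 without the 4 libraries), and for added minocycline Hspb1 (-0.068) and Cryab (-0.023) with limma-voom, Hspb6 (0.030 without the 4 libraries) and Hspb7 (-0.026 with an atrial covariate). The cause of these changes was not tested.

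With 1 library left out, members called higher ran from 0 to 2 in both comparisons with control, and lower from 2 to 3. The summed pair ran from 1.05 to 1.77 in isoproterenol versus control, from -0.49 to 0.38 for added minocycline and from 1.02 to 1.69 for both drugs. Hspb7 ran from -0.0088 to 0.074 in isoproterenol versus control, and Hspb3 from -0.19 to 0.0072 for both drugs versus control. For added minocycline the ranges were -0.037 to 0.066 (Hspb1), -0.020 to 0.045 (Hspb2), -0.065 to 0.0074 (Hspb6), -0.013 to 0.057 (Hspb7), -0.015 to 0.052 (Cryab), -0.45 to 0.38 (Hspa1a) and -0.55 to 0.37 (Hspa1b).

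All genes called numbered 681, 1 and 1369 without the 4 libraries (isoproterenol versus control, added minocycline, both drugs versus control), against 1669, 7 and 2557, and 33 with DESeq2 for added minocycline. Pathway genes called after isoproterenol numbered 10 of 102 in edgeR, 22 in DESeq2 and 16 in limma-voom. Over all 13281 genes the same tools called 1669, 2072 and 2190. No paired analysis was possible because the labels give no replicate numbers shared between groups. Depth differed among the genes, with 43 to 726 counts a library for Hspa1a and Hspa1b and 63 to 130 for Hspb3.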
